A study of Drosophila melanogaster with 9 samples.

Results

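The fasciclins and other homophilic adhesion genes are described here across 3 populations of brain cells and 2 stages of the fruit fly Drosophila melanogaster. The set holds 7 genes, chosen by name from the 16854 genes of the expression table: Fas1, Fas2, Fas3, Nrg, Lac, Ama and klg. RNA came from Kenyon cells (KC), labelled with GFP, from projection neurons of the olfactory system (PN), labelled with tomato, and from cells of the same brains negative for both (double negative, DN). Each population was taken from adults and from pupae at 45 h after puparium formation (45 h APF), from male and female brains without optic lobes. All flies had 1 genotype, in which GH146:Gal4 drove UAS:tomato opposite the CyO balancer and MB247:LexA drove LexAop:GFP opposite TM2. Both drivers mark a part of their cell class, and DN is a mixture of all other cells, glia included. The adult values are the authors' means, with 2 libraries per cell type in the labels, and each value at 45 h APF is from 1 pooled library. There is therefore no error for any single value. Adult libraries were read for 50 bases and pupal ones for 75 bases, on different sequencers, so stage and sequencing cannot be told apart.

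Proteins of this group sit on the surface of axons and epithelial cells and bind a copy of themselves on the next cell, which holds axons together in bundles and helps them to choose their path. Some also bind other partners or anchor to the cell's skeleton. In the mushroom body, where odors are learned, Fas2 protein outlines a subset of the lobes formed by Kenyon cell axons, and projection neurons bring odor signals to the Kenyon cell dendrites. In glia and other epithelia, Nrg, Lac and Fas3 also belong to septate junctions, the seals between neighbouring cells.

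Values are FPKM, fragments scaled to transcript length and to the mapped total, a unit that lets levels of different genes be compared. Differences are given on the log2(FPKM + 1) scale, which understates the change of low genes, and a gene is called apart at 2-fold or more on that scale. A comparison between cell types kept the genes that averaged at least 1 FPKM over the 3 cell types of that stage. A comparison between stages kept those that did so over both stages of that cell type, and limma those over all 6 columns. Genes kept for a pair can thus be low in both of its populations, as the marker gene Oaz was in adult KC and DN (0 and 0.255 FPKM). The Kenyon cell markers ey, prt, dac, Mef2, rut and dnc summed to 1033, 285 and 67.3 FPKM in KC, PN and DN of the adult and to 877, 18.6 and 28.8 FPKM in the pupa. In the adult 4 of these 6 were at least 2-fold higher in KC than in PN, while Mef2 stood at 125 FPKM in KC and 112 FPKM in PN, and dnc was lower in KC, with 28.6 FPKM against 137 FPKM in PN. All 6 were higher in KC than in PN in the pupa. The projection neuron markers Oaz, acj6, vvl and C15 summed to 0.422, 298 and 17.0 FPKM in the adult and to 1.91, 107 and 13.8 FPKM at 45 h APF. Of 9 glial markers, 4, 4 and 6 reached 5 FPKM in adult KC, PN and DN, and 7, 9 and 9 did at 45 h APF. Their sums were 190, 161 and 381 FPKM in the adult and 204, 2064 and 887 FPKM at 45 h APF, highest in pupal PN. Haemocyte markers other than Pxn, and photoreceptor markers, stayed under 3 FPKM in every column.

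At 45 h APF each of the 7 genes was lowest in KC of the 3 cell types, beside 39.3% of all genes kept. In the adult this was so for Fas1, Fas3 and klg of the 6 members kept, beside 31.9%. Glial markers were low in pupal KC as well. There 8 of 9 were at least 2-fold lower than in PN (median -3.98) and 6 of 9 lower than in DN (median -1.78). Of the neuron markers elav, brp, nSyb, Syt1 and para, 2 were lower in pupal KC than in DN and none higher (median -0.99). Against PN none of these 5 was lower and 1 was higher (median 0.02). The part of glial and neuronal RNA in the KC values was not tested. Fas1 was higher in adults than at 45 h APF in each cell type, and Ama and Lac were lower in each. In adult PN Lac was close to 0, at 0.0777 FPKM, against 364 FPKM in pupal PN. Fas2, Nrg and klg differed least between columns. Over the 6 columns the members spanned between 1.72 (Nrg) and 8.40 (Lac) on the log2 scale, with a median of 3.44, where the median of all 8867 genes kept was 1.87. In bulk samples of this kind, fewer cells expressing a gene and less RNA per cell cannot be told apart.

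**Figure D1:**
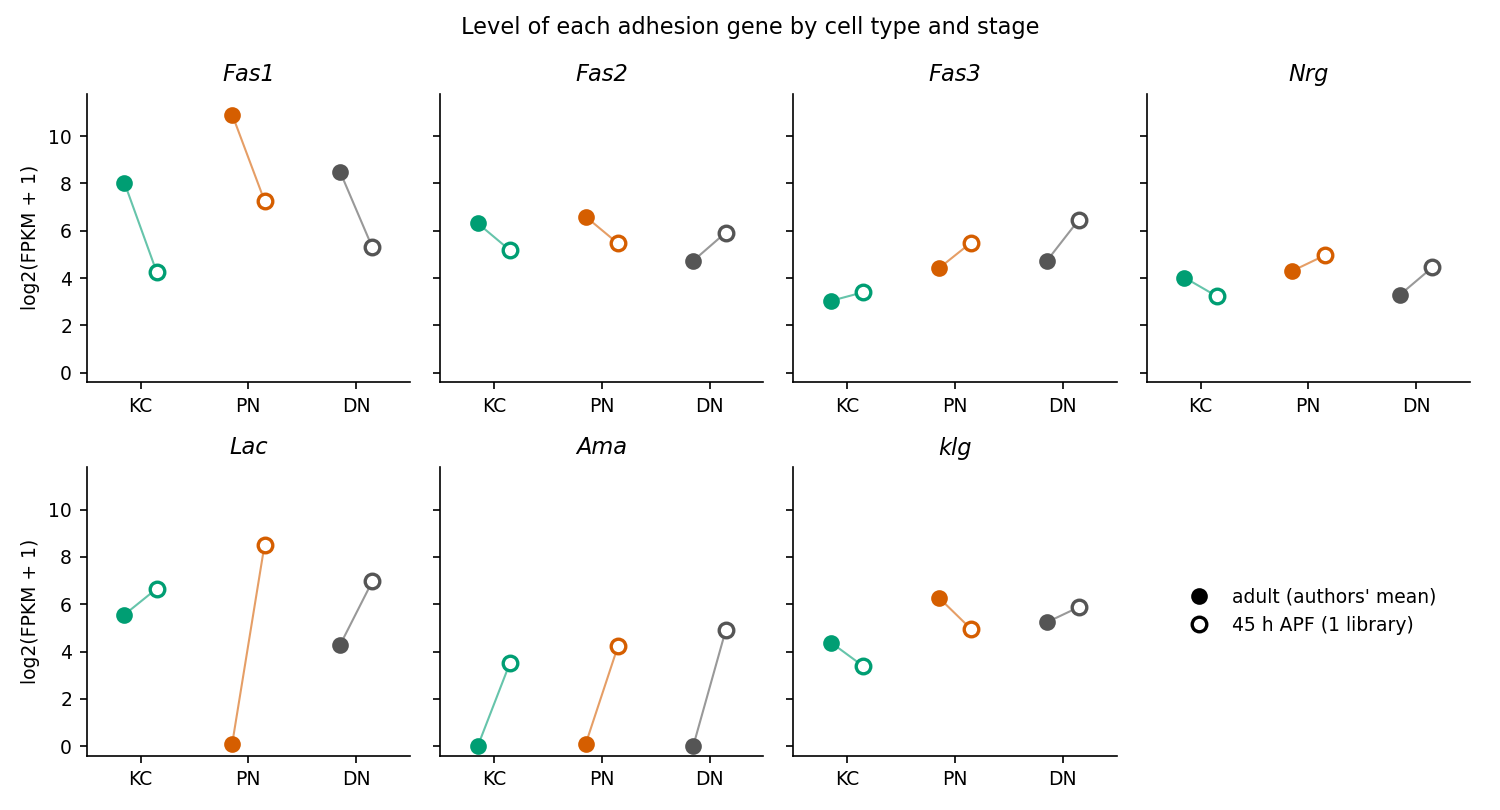
Level of each of the 7 genes as log2(FPKM + 1) on the vertical axis, by cell type on the horizontal axis, with filled points for the adult (the authors' mean) and open points for 45 h APF (1 library). Adult PN stands highest for Fas1 and near 0 for Lac, and all 3 adult points of Ama lie at or near 0.

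Fas1 encodes a glycoprotein of axon bundles built from fasciclin domains and held to the membrane by a lipid anchor. Its gene (FBgn0285925) lies on the plus strand of chromosome 3R at 16625238 to 16639771 (dm6). Fas1 stood at 261 FPKM in KC, 1920 FPKM in PN and 361 FPKM in DN of the adult, and at 18.0, 153 and 38.3 FPKM in pupal KC, PN and DN. PN was the highest population and KC the lowest at both stages, and in adult PN it ranked 32 among all genes of the table by FPKM. By FPKM, KC was 7.36-fold below PN in the adult and 8.48-fold below at 45 h APF. On the log2 scale these differences were -2.88 and -3.01, and 3.76% and 2.60% of the genes kept had a lower one. KC and DN lay closer together, with differences of -0.47 in the adult and -1.05 at 45 h APF. PN exceeded DN by 2.41 in the adult and 1.97 at 45 h APF. Adult levels were 14.5-fold, 12.6-fold and 9.42-fold above those at 45 h APF in KC, PN and DN, so the order of the cell types was the same at both stages.

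Fas2, a member of the immunoglobulin family related to vertebrate NCAM, acts in axon bundling and synapse growth and is needed in the mushroom body for olfactory memory. The gene (FBgn0000635) is on the minus strand of chromosome X at 4132887 to 4206093. Its level was 78.7 FPKM in KC, 96.0 FPKM in PN and 25.6 FPKM in DN of the adult, against 35.0, 43.2 and 59.6 FPKM in pupal KC, PN and DN. DN was thus the lowest population in the adult and the highest at 45 h APF. KC minus PN was -0.28 in the adult and -0.30 at 45 h APF, under the 2-fold size at both stages. KC was above DN by 1.58 in the adult, with a difference of -0.75 at 45 h APF, and PN was above DN by 1.87 in the adult, with -0.46 at 45 h APF. Between stages Fas2 was higher in adult KC (1.14) and adult PN (1.13) and lower in adult DN (-1.19).

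Fas3 encodes an immunoglobulin protein of axons, synaptic targets and septate junctions. It lies on the plus strand of chromosome 2L (FBgn0000636, 18320102 to 18393441). Fas3 was at 7.21 FPKM in KC, 20.3 FPKM in PN and 25.3 FPKM in DN of the adult, and at 9.57, 44.3 and 87.8 FPKM in pupal KC, PN and DN. The order was DN, PN, KC from high to low at both stages. KC was lower than PN and DN at both stages, with differences of -1.37 and -1.68 in the adult and of -2.10 and -3.07 at 45 h APF. The pupal difference from DN, 9.18-fold by FPKM, was the largest of the 7 genes in that comparison, and 1.67% of the genes kept had a lower value. Adult levels were 3.47-fold lower in DN and 2.19-fold lower in PN than at 45 h APF, and in KC the difference was -0.37. Pupal DN, the highest column for Fas3 and also for Fas2, Ama and klg at that stage, was the column with muscle RNA. There 3 of 5 muscle markers reached 5 FPKM and they summed to 177 FPKM, against sums from 0.289 to 6.61 FPKM in the other columns. The 5 tracheal markers summed to 16.1 FPKM in pupal DN and to between 0.398 and 6.29 FPKM elsewhere. Muscle markers at 0 were Mhc in adult KC, adult DN and pupal PN, and Mhc and up in pupal KC. The part of these cells in the DN values was not tested. Acp36DE and CG34171 share its locus in the table, with no exon overlap in the annotation and at most 0.289 FPKM in any column.

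Nrg, or neuroglian, is the fly relative of the vertebrate L1 adhesion protein, which links adhesion to the ankyrin skeleton and is needed for growth of mushroom body axons. It maps to the plus strand of chromosome X (FBgn0264975, 8517373 to 8555170). Values were 15.2, 18.7 and 8.80 FPKM in KC, PN and DN of the adult, and 8.40, 30.0 and 20.9 FPKM in pupal KC, PN and DN. PN was highest at both stages, while the lowest population was DN in the adult and KC at 45 h APF. Pupal KC were lower than PN (-1.72) and than DN (-1.22). In adult KC the difference from PN was -0.28 and that from DN was 0.73. Nrg was lower in adult than in pupal DN (-1.16), with differences of -0.66 in PN and 0.79 in KC.

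klg, or klingon, encodes an immunoglobulin adhesion protein known from photoreceptor development and from long-term memory. Its gene (FBgn0017590) spans 22899284 to 22961731 on the plus strand of chromosome 3R. klg stood at 19.8 FPKM in KC, 76.6 FPKM in PN and 36.6 FPKM in DN of the adult, and at 9.38, 29.8 and 58.0 FPKM in pupal KC, PN and DN. KC was lowest at both stages, while the highest population was PN in the adult and DN at 45 h APF. KC minus PN was -1.90 in the adult and -1.57 at 45 h APF. The difference from DN was -2.51 at 45 h APF, 6.18-fold by FPKM, and -0.85 in the adult. klg was higher in adult than in pupal KC (1.00) and PN (1.33), with a difference of -0.65 in DN. CG6660 and CR46088 share its locus in the table and overlap none of its exons.

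Lac, or lachesin, encodes an immunoglobulin protein held to the membrane by a lipid anchor, which is part of septate junctions and also found on axons. It is annotated on the plus strand of chromosome 2R (FBgn0010238, 12453190 to 12465630) with 1 transcript. Lac was at 46.1 FPKM in KC, 0.0777 FPKM in PN and 18.3 FPKM in DN of the adult, and at 100 FPKM in KC, 364 FPKM in PN and 124 FPKM in DN at 45 h APF. PN was thus the highest population at 45 h APF and the lowest in the adult. The KC minus PN difference was 5.45 in the adult and -1.85 at 45 h APF, and PN minus DN was -4.17 in the adult and 1.54 at 45 h APF. Over all genes kept at both stages, 1.27% and 4.73% were at least 2-fold apart in opposite directions at the stages in these comparisons. In the adult only 0.364% of the genes kept had a higher KC minus PN difference. Lac was lower in adults, with adult minus 45 h APF differences of -1.10 in KC, -8.40 in PN and -2.69 in DN, and in PN 0.0561% of the genes kept had a lower value. Of the glial markers kept, 3 of 8 were at least 2-fold lower in adult than in pupal KC and 1 was higher, while 9 of 9 were lower in adult PN and 7 of 9 in adult DN. The 9 of them summed to 190, 161 and 381 FPKM in adult KC, PN and DN and to 204, 2064 and 887 FPKM at 45 h APF, and none of them was at 0 in any column. Of these, repo, the transcription factor that defines glia, was at 0.480, 0.347 and 1.82 FPKM in the adult and at 6.42, 29.9 and 12.3 FPKM at 45 h APF. The part of glial RNA in the Lac values, and in those of Nrg and Fas3, was not tested.

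Ama, or amalgam, differs from the other members in that its product is secreted, and it binds the surface protein neurotactin. Its gene (FBgn0000071) is on the plus strand of chromosome 3R at 6762593 to 6765261. Ama was listed at 0 FPKM in KC, at 0.0537 FPKM in PN and at 0.0172 FPKM in DN of the adult, and at 10.5, 17.6 and 28.8 FPKM in pupal KC, PN and DN. Ama was at least 2-fold lower in adults in each of the 3 cell types, as were 11.5% of all genes kept. It was under the filter in the adult cell type comparisons. Among pupal cells DN was highest and KC lowest, with differences of -0.69 for KC minus PN, -1.37 for KC minus DN and -0.68 for PN minus DN. The adult minus 45 h APF difference was -4.14 in PN and -4.87 in DN, and no fold is given for KC, which was listed at 0. The antisense noncoding gene CR45593 overlaps 102 bases of its exons (5.24%), and the library kit is not stated to keep strand, so reads from that stretch cannot be assigned to either gene.

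KC and PN, the partners at the mushroom body input, were compared within each stage. In the adult Fas1, Fas3 and klg were at least 2-fold lower in KC and Lac was higher, among the 6 members kept. The median difference of the members was -0.83, beside 0.01 over all genes. Of all 8515 genes kept, 19.9% were lower in KC by that size and 12.1% higher. In the pupa Fas1, Fas3, Nrg, Lac and klg were lower in KC and none of the 7 was higher, where 18.1% of 8603 genes were lower and 9.07% higher. The pupal median of the members was -1.72, beside 0.02 over all genes. With quantile normalization the background in the adult was 1409 genes higher and 1453 lower, in place of 1030 and 1696, and at 45 h APF 957 and 1193, in place of 780 and 1555. The members called were the same in number under that scaling, with 1 higher and 3 lower in the adult and 0 and 5 at 45 h APF.

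KC were then set against DN, the rest of the central brain. In the adult Fas2 and Lac were higher in KC and Fas3 was lower, with 8.39% of all genes kept higher and 13.1% lower. The member median was 0.13, against 0.03 over all genes. At 45 h APF Fas1, Fas3, Nrg, Ama and klg were lower in KC and none was higher, where 19.9% of all genes were lower and 9.54% higher, and the member median was -1.22 beside 0.02. Fas1 and Nrg were close to the 2-fold size and became -0.97 and -0.95 with quantile normalization, under which the background was 999 genes higher and 1251 lower, in place of 821 and 1710.

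For PN against DN, the adult had Fas1, Fas2, Nrg and klg higher in PN and Lac lower, beside 16.9% of all genes higher and 9.49% lower. The member median was 1.02, against -0.01 over all genes. The neuron markers elav, brp, nSyb, Syt1 and para moved with these members, since all 5 were higher in adult PN than in DN (median 1.89) and they summed to 3305 FPKM in PN and 921 FPKM in DN. The part of neuronal RNA in the member values was not tested. The values of Nrg (1.01) and klg (1.04) lay just past the 2-fold size and became 0.91 and 0.94 with upper quartile scaling. In the pupa Fas1 and Lac were higher in PN and none was lower, beside 7.31% and 9.36% of all genes. Fas3 (-0.97) and klg (-0.93) lay just inside the size there. The member median was -0.46, beside 0.03 over all genes.

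**Figure D2:**
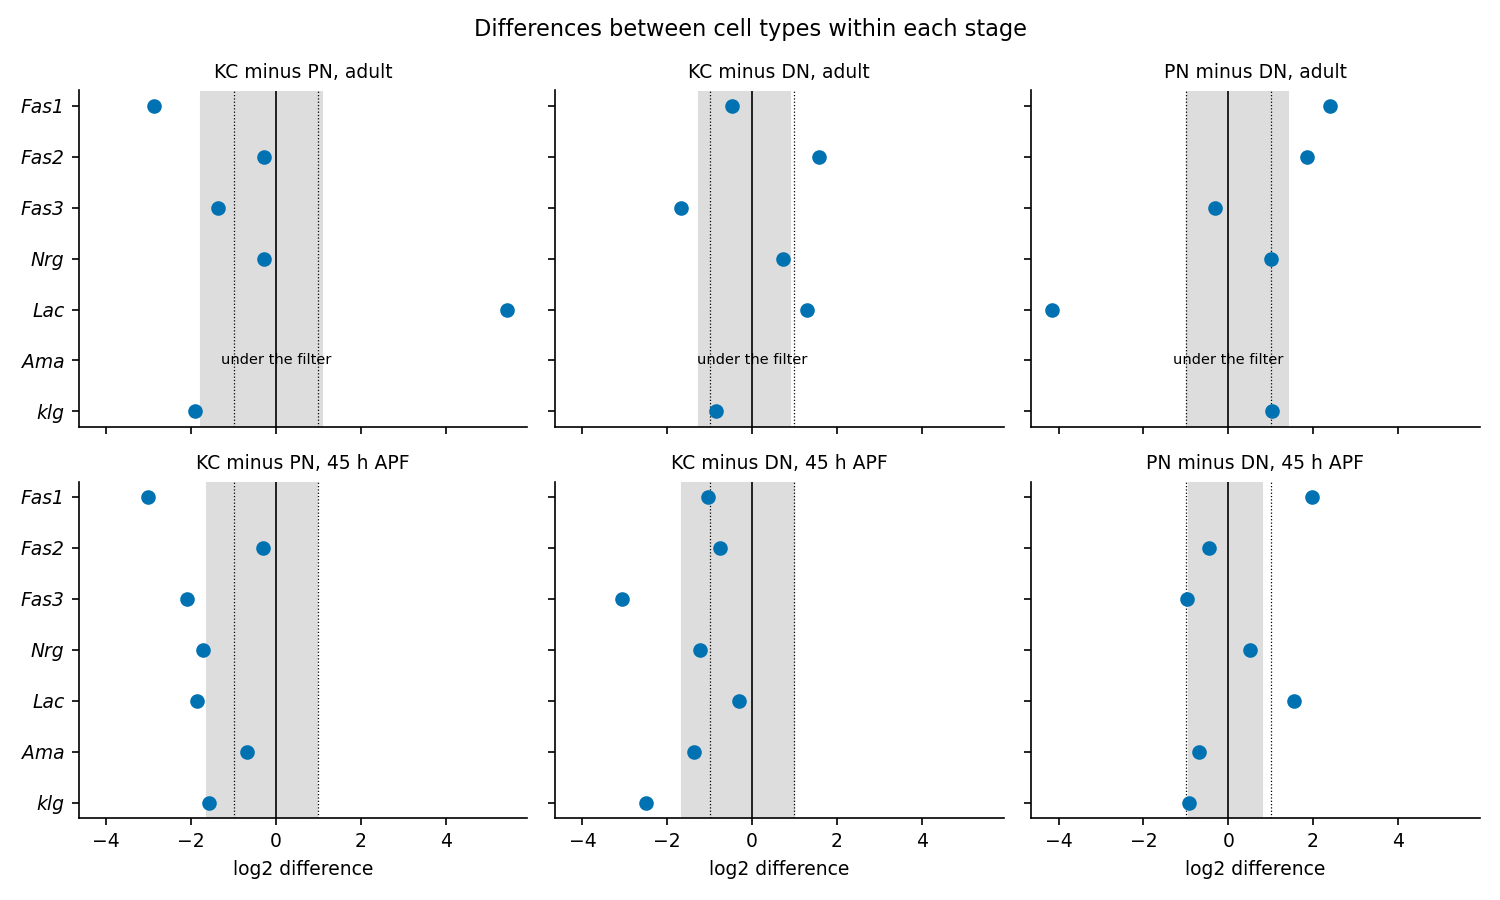
Log2 difference of each gene on the horizontal axis for the 3 pairs of cell types, in the adult (upper row) and at 45 h APF (lower row), with dotted lines at 2-fold and a grey band for the middle 80% of all genes kept. At 45 h APF all 7 points lie left of 0 in both KC comparisons, and in the adult Lac stands at 5.45 for KC minus PN and -4.17 for PN minus DN.

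Between the stages, Fas1 was at least 2-fold higher in adults in each of the 3 cell types, beside 5.32% of all genes, and Lac and Ama were lower in each, beside 11.5%. In KC, Fas1, Fas2 and klg were higher and Lac and Ama lower, where 19.5% of the genes kept were higher and 24.6% lower. The same 3 genes were higher in adult PN, and Fas3, Lac and Ama were lower, with 24.9% of all genes higher and 31.4% lower. In DN only Fas1 was higher, and Fas2, Fas3, Nrg, Lac and Ama were lower, with 12.1% of all genes higher and 21.7% lower. Some of these lay close to the 2-fold size. With quantile normalization the KC values of Lac and klg became -0.76 and 0.82 and the PN value of Fas3 became -0.98. With upper quartile scaling the values of Lac in KC, Fas3 in PN and Nrg in DN became -0.93, -0.93 and -0.98, and that of Fas2 in DN became -0.997. Over all genes of KC, quantile normalization gave 1705 higher and 1576 lower and upper quartile scaling gave 1781 and 1537, in place of 1578 and 1986, so that the majority turned. Over all genes of DN, quantile normalization gave 1389 higher and 1452 lower and upper quartile scaling gave 1363 and 1522, in place of 1061 and 1894. The median of all genes was itself below 0 in each cell type, at -0.31 in KC, -0.30 in PN and -0.19 in DN where the medians of the 7 members were 0.79, -0.66 and -1.19. Of the 5 neuron markers, 5 were at least 2-fold higher in adult KC (median 2.31), 5 in adult PN (3.51) and 4 in adult DN (1.16). None was lower by that size in any cell type. The part of neuronal RNA in the stage differences of the members was not tested.

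**Figure D3:**
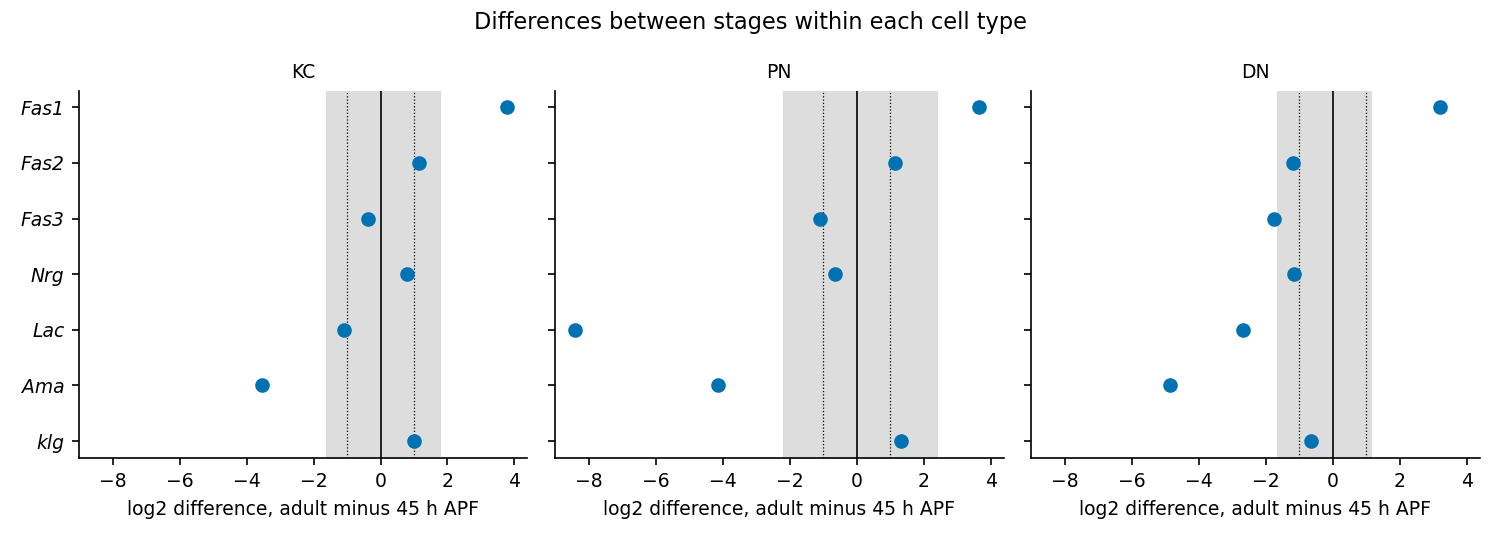
Log2 difference of each gene, adult minus 45 h APF, on the horizontal axis for KC, PN and DN, with dotted lines at 2-fold and a grey band for the middle 80% of all genes kept. Fas1 lies at 3.78, 3.64 and 3.20, right of the band in each panel, and Fas2 is right of 0 in KC and PN and left of it in DN.

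Effects shared by all columns were tested with limma, with additive terms for stage and cell type over the 6 columns and Benjamini-Hochberg adjustment over 8867 genes. Its error, with 2 residual degrees of freedom, comes from the change of cell type differences between adult and pupa, not from the variation between animals. For each gene limma draws this error toward a trend over all genes, with 4.14 prior degrees of freedom. Fas1 was lower in KC than in PN (-2.95, SE 0.30, limma adjusted p = 0.0212), beside 0.789% of all genes called either way. That call was lost when any 1 column was left out, with adjusted p-values between 0.0586 and 0.208. No member was called by limma for KC minus DN, where 0.756% of all genes were, or for PN minus DN, where 0.0226% were. At an unadjusted p under 0.05 there were 3 members for the first of these and 1 for the second, beside 971 and 341 of all 8867 genes. The nearest to a call were Fas3 for KC minus DN (-2.38, SE 0.45, limma adjusted p = 0.112) and Fas1 for PN minus DN (2.19, SE 0.30, limma adjusted p = 0.237). For the stage, Fas1 rose by 3.54 (SE 0.25, limma adjusted p = 0.00315) and Ama fell by 4.18 (SE 0.47, limma adjusted p = 0.0069), beside 8.03% of all genes called higher and 17% called lower. The value for Ama includes the adult KC column listed at 0, so it depends on the pseudocount and is no fold. Both stage calls were lost without the PN column or without the DN column at 45 h APF, with adjusted p-values from 0.0567 to 0.0679. Over all genes the stage had 712 calls higher and 1505 lower, which quantile normalization changed to 782 and 990 and upper quartile scaling to 859 and 1137. For Lac the stage estimate was -4.07 with an SE of 1.29 (limma adjusted p = 0.0646), as its difference was not alike in the 3 cell types, and without the adult KC column it was called (adjusted p = 0.0361). Fas3 had -1.07 (SE 0.37, limma adjusted p = 0.0773). Fas2, Nrg and klg had adjusted p-values between 0.359 and 0.607 in limma for the stage, which does not show that they were alike at both stages.

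Genes that work with the members were described next, in 3 lists. The first holds 12 ligands, anchors, relatives and signalling partners. Nrt, the neurotactin gene whose product binds amalgam, stood at 42.1, 34.3 and 47.4 FPKM in adult KC, PN and DN, against 81.2, 196 and 165 FPKM in pupal KC, PN and DN. Like Ama it was lower in adults (-1.73, SE 0.35, limma adjusted p = 0.0212), though it was present in each adult column while Ama was at or near 0. The Fas1 relative mfas, also with fasciclin domains, went the other way from Fas1, with 3.55, 4.05 and 17.9 FPKM in KC, PN and DN of the adult against 27.8, 429 and 149 FPKM at 45 h APF. It fell by 4.02 (SE 0.74, limma adjusted p = 0.0175). The summed glial markers were also highest in pupal PN, with 204, 2064 and 887 FPKM in pupal KC, PN and DN. In the adult they were at 190, 161 and 381 FPKM. The part of glial RNA in the mfas values was not tested. The immunoglobulin gene wrapper, which is also among the glial markers, fell by 4.77 (SE 0.47, limma adjusted p = 0.00621). For the scaffold gene dlg1, whose product binds the tail of Fas2, the adult values in KC, PN and DN were 30.9, 70.2 and 18.2 FPKM and the pupal ones 11.5, 16.2 and 19.6 FPKM. As for Fas2, DN was lowest in the adult and highest at 45 h APF. This order was not particular to Fas2 and dlg1. It was also that of Ank, Abl and Moe of this list and of the neuron markers elav, brp, nSyb and Syt1, though not para. The ankyrin gene Ank2, whose long neuronal products bind Nrg, was at 241, 308 and 177 FPKM in adult KC, PN and DN and at 185, 223 and 169 FPKM at 45 h APF. Nrt, dlg1 and Ank2 were singled out for their known binding to a member after their values had been seen.

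Of the 11 genes of this list in the limma fit, Nrt, wrapper and mfas were called for the stage, all lower in adults. Beside these, 17% of all genes were called lower and 8.03% higher. The calls of Nrt, wrapper and mfas were lost with no filter on low values, and also without the DN column at 45 h APF. None of the list was called for a cell type. There an unadjusted p under 0.05 was reached by 2 for KC minus PN, 3 for KC minus DN and 0 for PN minus DN. Of all 8867 genes, 1378, 971 and 341 reached it in these contrasts. By size, 3 of 10 were at least 2-fold lower and 1 higher in KC than in PN in the adult, beside 19.9% and 12.1% of all genes, with beat-Ia lowest (-4.38) and scrib highest (2.39). Of 11 pupal values 3 were lower, mfas the lowest (-3.90), and 3 higher, Appl the highest (2.25), beside 18.1% and 9.07% of all genes. The list medians were -0.77 and -0.32, against 0.01 and 0.02 over all genes. The Fas2 antagonist beat-Ia was also the lowest for KC minus DN, with -3.09 in the adult and -4.01 at 45 h APF.

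The second list holds 16 other septate junction genes, of which 2 (dlg1 and scrib) are also in the first list and nrv2 is also a glial marker. In the pupa 12 of 16 were lower in KC than in PN and 2 higher, beside 18.1% and 9.07% of all genes, with a median of -1.67, nrv2 the lowest (-3.21) and scrib the highest (2.17). The adult had 2 of 14 lower in KC and 6 higher, beside 19.9% and 12.1% of all genes, with a median of 0.73 against 0.01 over all genes. For PN minus DN at 45 h APF 10 of 16 were higher and none lower, beside 7.31% and 9.36% of all genes, with a median of 1.26 and Gli the highest (2.48). In the adult 4 of 14 were lower in PN than in DN and 1 higher, beside 9.49% and 16.9% of all genes, with a median of -0.36. Between the stages 13 of 16 were lower in adult than in pupal PN, with a median of -2.81 and bou the lowest (-4.77), beside 31.4% of all genes. In KC 4 of 15 were lower, near the 24.6% of all genes, and in DN 6 of 14 were, beside 21.7%. Lac, a junction gene itself, had a PN difference of -8.40, beyond the lowest of this list, while Fas3 and Nrg had -1.09 and -0.66. In limma kune, pck, crok and bou of 15 tested fell in adults, beside 17% of all genes called lower. The cytoplasmic junction gene cora was higher in KC than in PN (2.16, SE 0.30, limma adjusted p = 0.0468) and than in DN (2.57, SE 0.30, limma adjusted p = 0.0325). For these 2 contrasts 0.789% and 0.756% of all genes were called either way. All limma calls within this list were lost with no filter on low values, and also without the DN column at 45 h APF. The summed glial markers given beside Lac were highest in pupal PN as well, and their part in these junction gene values was not tested.

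The third list holds 18 other genes with homophilic binding, such as cadherins, Dscam genes and teneurins. In KC against PN, 12 of 17 were at least 2-fold lower in the adult and 12 of 18 at 45 h APF, beside 19.9% and 18.1% of all genes, and none was higher at either stage, beside 12.1% and 9.07%. The medians were -1.69 and -1.44, beside 0.01 and 0.02 over all genes, with CadN2 lowest in the adult (-2.96) and bdl at 45 h APF (-3.50). Against DN, 8 of 17 were lower in adult KC and 15 of 18 in pupal KC, beside 13.1% and 19.9% of all genes. None was higher at either stage, beside 8.39% and 9.54%. For PN minus DN 7 of 17 were higher in the adult and 1 lower, beside 16.9% and 9.49% of all genes, with Dscam4 the highest (2.66). At 45 h APF 2 of 18 were higher and 4 lower, beside 7.31% and 9.36%. Between stages 10 of 18 were higher in adult PN and 4 lower, beside 24.9% and 31.4% of all genes, with a median of 1.16 against -0.30 over all genes. The 5 neuron markers moved the same way, with 4 lower in adult KC than in PN (median -1.74) and 5 higher in adult than in pupal PN (median 3.51). None of them was lower in KC than in PN at 45 h APF and 1 was higher. Against DN, 2 of these 5 markers were lower in pupal KC and none was higher (median -0.99). In adult KC none was lower than in DN and 1 was higher (median 0.31). Their part in the values of this list was not tested. No gene of this list was called by limma among 17 tested, in any of the 4 contrasts. At an unadjusted p under 0.05 there were 8, 8 and 0 for the cell type contrasts and 4 for the stage. Of 8867 genes, 1378 reached it for KC minus PN, 971 for KC minus DN, 341 for PN minus DN and 3811 for the stage.

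**Figure D4:**
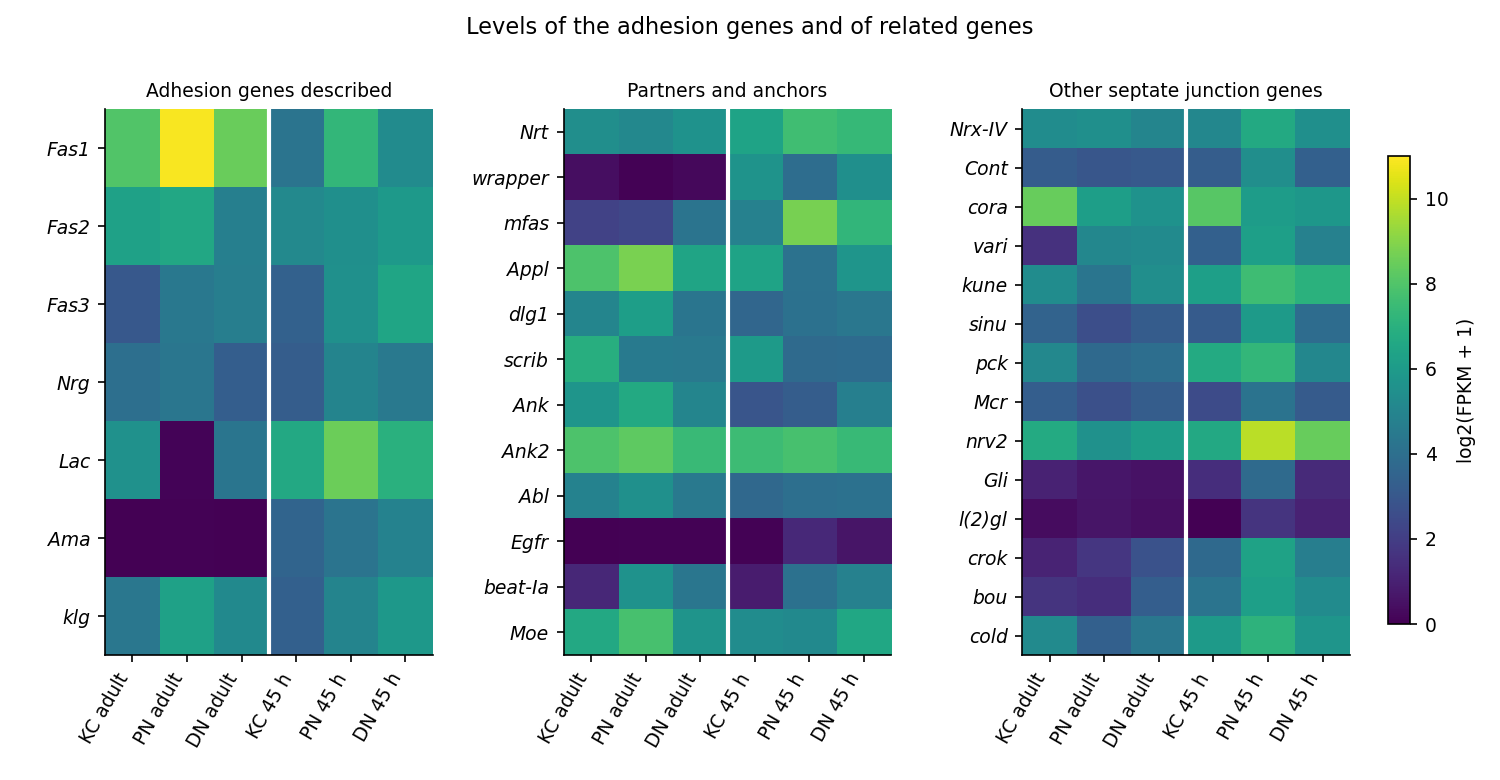
Levels as log2(FPKM + 1), shown by color, of the 7 genes (left), the 12 partners and anchors (middle) and the septate junction genes not in the partner list (right), with 1 column per cell type and stage. Most junction genes are brightest in pupal PN, as Lac is, and Ama and wrapper are dark in each adult column.

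The members did not share a pattern among themselves. Across the 6 columns, which share cell types and stages, Pearson's r between members ran from -0.79 for Fas1 and Lac to 0.75 for Lac and Ama. For each member the 3 genes of most similar pattern were found by the same measure among the genes kept, as a description. For Fas1 these were Rcd7 (r = 0.995), CG3714 (0.995) and CG32809 (0.990), and 68 genes reached 0.95. Pearson's r takes no account of the size of a change. Rcd7 ran from 0.395 to 2.86 FPKM over the columns, while Fas1 ran from 18.0 to 1920 FPKM. The genes nearest to Fas2 were CG14657 (0.977), Dg, the dystroglycan gene (0.975), and dpr19 (0.967), with 4 genes at 0.95 or more. Next to Fas3 stood CG43229 (0.995), CG42867 (0.993) and twe (0.991), and next to Nrg the small GTPase gene Mtl (0.985), CR43363 (0.978) and CG18428 (0.978). For klg they were CG42540 (0.983), CR46145 (0.982) and CG31108 (0.982). CG14969 (0.997), CG32022 (0.996) and CR45874 (0.993) were nearest to Lac, although CG14969 stood at 7.59 FPKM in adult PN, where Lac was at 0.0777 FPKM. Ama, low in each adult column, had the most neighbours, with 341 genes at 0.95 or more, led by CG31606 (0.999), CG11808 (0.998) and Non2 (0.998).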

How the data were processed

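RNA of sorted cells was polyA selected and made into SmartSeq V2 libraries, with 1 ng of RNA and 25 M reads planned, per the labels' protocols. The deposited values are FPKM made by the authors. TopHat, Cufflinks and dm6 are named without versions in the submitters' processing notes. The table has 1 column per library at 45 h APF and, per the file headers, averages for the adult, so adult depth cannot be read. The smallest steps of pupal values correspond to about 24.1, 29.2 and 32.1 M reads in the KC, PN and DN libraries, an inference with 93.5%, 93.2% and 95.7% of low values within 0.1 of a whole read, at a length shortened by 200 bases. Of 16859 lines, 5 whose gene name had become a date were left out. Coordinates are 1-based from Ensembl release 115. For each member but Ama, whose locus in the table starts earlier, they match the table once 1 is added to its start.

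Values were analysed as log2(FPKM + 1) with limma 3.58.1 (R 4.3.3) and pandas 2.3.3 (Python 3.11.15), with a mean-variance trend and a threshold of 0.05, checked on simulated data. Alternatives were pseudocounts of 0.1 and 5, no filter on low values, quantile normalization, upper quartile scaling and each column left out in turn. The members, lists and rules were chosen with earlier results of these data known. Named by rule are the members, the 3 genes of most similar pattern to each, and the extremes of each list. The text also names marker genes, limma calls within the lists and genes that shared the order of Fas2 and dlg1. These last genes and Nrt, dlg1 and Ank2 were chosen after their values were seen.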

Additional observations from a re-analysis of the deposited data

Results flagged for a closer look

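Lac differed in opposite directions at the 2 stages. KC minus PN was 5.45 in the adult and -1.85 at 45 h APF, and PN minus DN was -4.17 in the adult and 1.54 at 45 h APF. Of all genes kept at both stages, 1.27% and 4.73% did so by at least 2-fold in these comparisons. Fas2 was higher in adults in KC (1.14) and PN (1.13) and lower in DN (-1.19). With 1 value per cell type and stage, these differences were not tested.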

How the results depend on the processing

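Of 300 single differences recomputed with another pseudocount, filter or scaling, 278 kept their side of the 2-fold size and 22 crossed it, none with a change of sign. With a pseudocount of 5 the number of members apart became 3 for PN minus DN in the adult (from 5) and 3 for KC minus DN at 45 h APF (from 5). Quantile normalization also gave 3 for KC minus DN at 45 h APF, and 3 for the stage in KC (from 5). Upper quartile scaling gave 3 for PN minus DN in the adult and 4 in place of 2 at 45 h APF. With no filter on low values limma called 0 genes and 0 members in each of the 4 contrasts, with adjusted p-values of 0.391 for Fas1 between KC and PN, 0.114 for Fas1 and 0.119 for Ama between stages. With a pseudocount of 5 it called 28 genes for KC minus PN, 17 for KC minus DN and 1 for PN minus DN, and with quantile normalization 44 for KC minus DN. The cause was not tested. With 1 column left out at a time, limma called 0 to 51 genes for KC minus PN, 0 to 143 for KC minus DN, 0 to 7 for PN minus DN and 0 to 1597 for the stage, with 0 members between cell types and 0 to 3 for the stage. A left-out column leaves 1 residual degree of freedom. Without either PN or DN at 45 h APF neither Fas1 nor Ama was called for the stage (adjusted p from 0.0567 to 0.0679), while both were called without any other column. Quantile normalization moved the median of all genes to 0.14 from 0.01 for KC minus PN in the adult, and to -0.13 from -0.31 for the stage in KC. No paired analysis was possible because the adult replicates are averaged and the columns carry no replicate numbers.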
